A study of Mus musculus with 6 samples.

Results

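Keratins are the intermediate filament proteins of epithelial cells, and the cornified envelope is the layer of cross-linked protein beneath the membrane of a dying keratinocyte. The group described here was chosen with earlier results of these data known. It was defined by gene symbol: Krt followed by digits, Sprr followed by digits and an optional letter, and Ivl, Lor, Flg, Sfn and Tgm1. It held 57 genes, 44 keratins, 8 small proline-rich proteins and 5 others, of 18193 genes with a probe set of their own. The arrays measured mouse embryonic fibroblasts of the strain B6CBAF1/J kept in a medium for embryonic stem cells with serum and leukaemia inhibitory factor, given 3 reprogramming factors. SOX2 and KLF4 were shared by all samples, with OCT4 in its wild-type form in O(WT)SK and in the form named 5R in O(5R)SK. The labels used here do not explain 5R and do not state how the factors were delivered or how old the embryos were. RNA was taken on days 3, 5 and 7, with 1 array for each combination and day, 6 arrays in all. No array of factor-free fibroblasts was analysed here, so each value stands against another day or the other combination.

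Keratins work in pairs, a type I (acidic) with a type II (basic) chain, and the pair marks the kind of epithelium. Krt8 and Krt18 form the filaments of simple epithelia and of the early embryo, Krt5 and Krt14 those of the basal layer of stratified epithelia, and Krt1 and Krt10 those of the layers above. In late keratinocyte differentiation the enzyme encoded by Tgm1 cross-links involucrin (Ivl), loricrin (Lor) and small proline-rich proteins into the envelope, while filaggrin (Flg) bundles the keratin filaments. Sfn encodes a 14-3-3 protein of stratified epithelia and is not itself an envelope protein. KLF4, which all samples received, is known as a regulator of the epidermal barrier. Fibroblasts use vimentin as their intermediate filament and have few keratins.

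For 44 of the 57 genes a promoter window was found in RefSeq (GRCm38.p6). The 250 bases before the start of transcription are shown for 4 genes that lie far apart in their change with time: Sprr2k and Krt20, which fell, and Sprr1a and Ivl, which rose. They are written 5′ to 3′, with capitals for TATAAA and for the AP-1 motif TGANTCA.

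Sprr2k (chr3:92432332-92432581, plus strand): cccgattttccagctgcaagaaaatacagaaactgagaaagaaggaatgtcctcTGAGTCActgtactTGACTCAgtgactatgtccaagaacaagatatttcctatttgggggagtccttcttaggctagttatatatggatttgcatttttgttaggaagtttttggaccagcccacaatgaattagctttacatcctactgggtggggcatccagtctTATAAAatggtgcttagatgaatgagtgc

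Krt20 (chr11:99438154-99438403, minus strand): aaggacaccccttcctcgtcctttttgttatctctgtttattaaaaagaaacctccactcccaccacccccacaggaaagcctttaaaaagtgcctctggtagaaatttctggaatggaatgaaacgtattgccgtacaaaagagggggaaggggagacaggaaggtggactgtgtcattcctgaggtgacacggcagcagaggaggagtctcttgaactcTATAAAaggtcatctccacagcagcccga

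Sprr1a (chr3:92485882-92486131, minus strand): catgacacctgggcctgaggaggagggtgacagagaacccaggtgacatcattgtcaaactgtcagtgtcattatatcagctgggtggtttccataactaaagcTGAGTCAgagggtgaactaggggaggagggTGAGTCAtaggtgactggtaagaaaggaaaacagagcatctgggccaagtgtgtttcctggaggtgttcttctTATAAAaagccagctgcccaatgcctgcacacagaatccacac

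Ivl (chr3:92573736-92573985, minus strand): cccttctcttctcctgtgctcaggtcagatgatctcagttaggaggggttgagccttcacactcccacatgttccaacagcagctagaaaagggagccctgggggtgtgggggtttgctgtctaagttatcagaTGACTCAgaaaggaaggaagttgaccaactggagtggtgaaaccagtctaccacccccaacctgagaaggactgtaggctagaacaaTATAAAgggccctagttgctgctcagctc

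Each of these 4 stretches held TATAAA, beginning 29 bases before the start in Sprr2k, Krt20 and Ivl and 43 before it in Sprr1a. Sprr2k and Sprr1a held 2 AP-1 motifs each and Ivl held 1, while Krt20 held none. The 4 genes were picked by their change with time, and whether a motif goes with a change was not tested. Over windows of 300 bases (250 before to 50 after the start), searched on both strands, TATAAA was present for 28 of the 44 genes and in 13.6% of all 32851 windows in the table. The AP-1 motif was present for 11 of 44 genes, against 7.81% of all windows. The octamer ATGCAAAT, the motif of OCT factors, was found for 5 genes, all of the Sprr2 family (Sprr2k, Sprr2d, Sprr2f, Sprr2h and Sprr2i), against 1.74% of all windows. The KLF motif CCNCNCCC was found for 18 of 44 genes and in 49.5% of windows. The GRHL motif AACNGGTT was found for 1 gene, Sfn, and in 2.09% of windows. None of these motifs contains another, neighbouring genes of a family share sequence, and a match is a description of letters, not a binding site.

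Values are the deposited linear intensities, and the 6 arrays correlated with each other at 0.975 to 0.984. Background was set at the 40th percentile of the probe set means of log2(intensity + 16), which is an intensity of 33.5. By this limit 27 of the 57 genes were above background, 20 of them on all 6 arrays, and 23 genes were below the limit on every array. Of all 18193 genes, 12622 were above it. With the 95th percentile of 43 olfactory receptor probe sets as the limit instead (an intensity of 32.2), the count was 28. The genes nearest the limit were Sprr2f, Sprr2d and Krt83 just below it (mean log2 5.54, 5.57 and 5.61) and Krt31, Krt79 and Krt5 just above it (5.73, 5.79 and 5.79). Of the fibroblast markers, 10 of 10 were above background, with a summed intensity of 100837 to 137285. The highest single intensity was 34285 on the day 7 array of O(5R)SK and at least 40353 on the others. The median intensity was 68.0 on that array and 59.0 to 61.4 on the others. The 3′ to 5′ ratio of a spiked control was 3.78 on the day 3 array of O(5R)SK against 2.05 to 2.56 on the others.

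The genes above background were not those of 1 epithelium. All 5 keratins of simple epithelia were among them (Krt7, Krt8, Krt18, Krt19 and Krt20). So were 4 of the 5 genes that are neither keratins nor small proline-rich proteins (Ivl, Lor, Sfn and Tgm1, but not Flg). Of the basal layer there were 2 of 3 (Krt5 and Krt14, not Krt15), and of the suprabasal layers 2 of 5 (Krt10 and Krt77). Krt1, the partner of Krt10, was below the limit on every array, at 4.10 to 23.1. Of the keratins of stress, wounds and appendages 1 of 3 passed (Krt16), of those of mucosa and cornea 2 of 3 (Krt12 and Krt13), and of other keratins 4 of 8 (Krt42, Krt79, Krt80 and Krt88). Of the hair keratins 4 of 17 passed (Krt31, Krt32, Krt81 and Krt84). Of the small proline-rich proteins 3 of 8 passed: Sprr1a, Sprr2k and Sprr3.

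The other 30 genes had single intensities of 0.770 to 76.5. Of these, 7 crossed the limit somewhere: Krt24, Krt28 and Krt78 on 1 array each, Krt17 on 2, Krt83 and Sprr2f on 3, and Sprr2d on 4. Sprr2d held the highest of these values, 76.5 on day 7 with O(5R)SK, while the O(WT)SK array of that day read 11.9. These 30 genes did not enter the main tests. With no filter, limma called 0 of all 18193 genes between days 7 and 3. In RefSeq, 22 of the 57 genes lie on chromosome 11 and 22 on chromosome 15, the keratin clusters, with 10 above background in each. A further 11 lie on chromosome 3, in the epidermal differentiation complex, with 5 above background, and Tgm1 and Sfn lie alone on chromosomes 14 and 4.

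**Figure D1:**
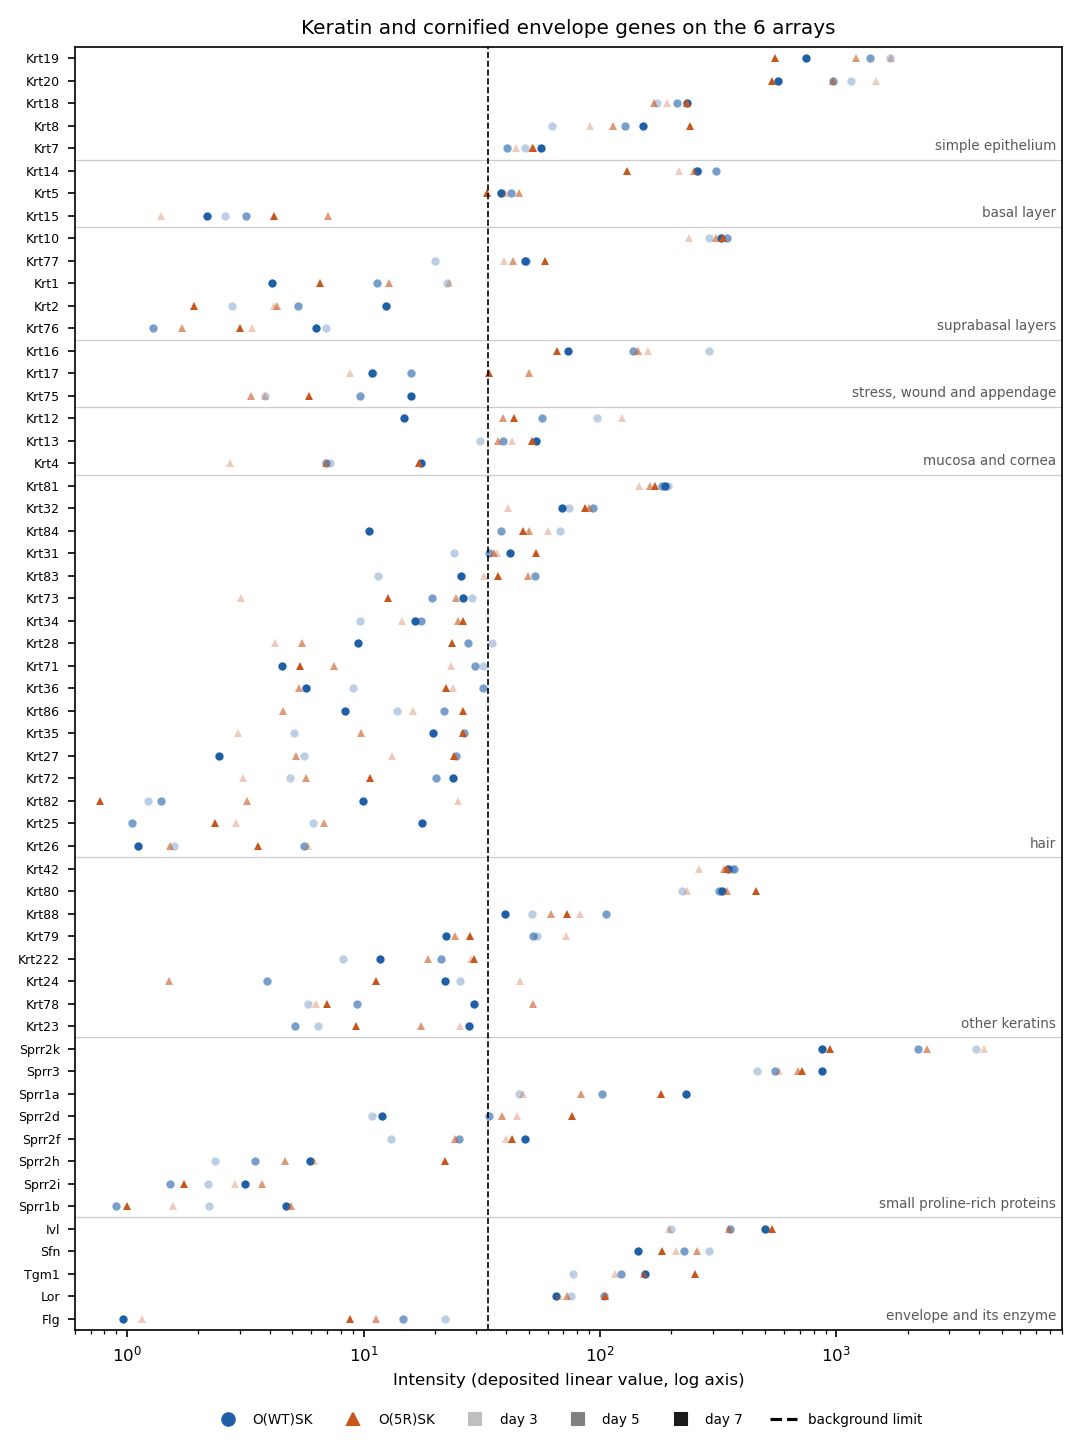
Intensity of each of the 57 genes on the 6 arrays (log axis, 1 point per array; circles O(WT)SK, triangles O(5R)SK, darker shades for later days), grouped by role, with the background limit of 33.5 as a dashed line. Simple epithelial keratins lie to the right of the line on every array, while most hair keratins lie to its left.

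The main change was with time. From day 3 to day 7, 5 of the 27 genes rose (Sprr1a, Ivl, Krt8, Tgm1 and Krt80) and 4 fell (Sprr2k, Krt16, Krt19 and Krt20), by limma over both combinations with a Benjamini-Hochberg adjusted p under 0.05 over 12622 tested genes. Among all tested genes 6.52% were called higher and 3.68% lower. The median difference was 0.18 on the log2(intensity + 16) scale for the 27 genes (16 positive, 11 negative) and 0.03 for all tested genes (6743 positive, 5879 negative). Genes entered this test by their mean over all arrays, and no count over the 27 speaks for the 30 that did not. Each of these 9 genes lay wholly higher or wholly lower on the day 7 arrays than on the day 3 arrays, with day 5 between them in both combinations. The calls came from these same arrays, so this describes the called genes and is not a further test. Of all tested genes, 14.9% were higher at each step in both combinations and 12.9% lower. These calls rest on few arrays: without any single day 3 or day 7 array limma called 0 of the 12622 genes, and with no filter on low intensities it called 0 of 18193. With either day 5 array left out it called 10 of the 27 genes, losing Krt80 and gaining Krt12 and Krt79. In bulk RNA, fewer cells of a type and less RNA per cell cannot be told apart. Nothing says whether the arrays came from separate cultures, so p-values reflect nothing more than how these 6 arrays scatter, and that scatter may be technical.

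Among the keratins of simple epithelia, Krt8 moved opposite to Krt19 and Krt20. Krt8, the type II chain of the earliest embryonic filaments, read 62.8, 128 and 153 in the order of days 3, 5 and 7 under O(WT)SK, against 90.6, 114 and 240 under O(5R)SK. Both day 7 arrays exceeded both day 3 arrays. It rose 2.26-fold (log2 1.18, SE 0.21, adjusted p = 0.039 by limma), and its other 2 probe sets gave differences of 1.19 and 1.07. The call was lost with a pseudocount of 4. Its type I partner Krt18 read 175, 211 and 234 under O(WT)SK, against 192, 169 and 234 under O(5R)SK. The day 7 values of Krt18 were the higher ones by a small margin, and the difference of 0.33 missed the threshold (adjusted p = 0.19 by limma). Krt7, another type II chain of simple epithelia, stayed close to background at 40.3 to 56.1, with a difference of 0.18 (adjusted p = 0.43).

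Krt19, a type I keratin of ductal and other simple epithelia, read 1684, 1390 and 740 under O(WT)SK, against 1705, 1216 and 552 under O(5R)SK. The combinations started within a few percent of each other on day 3. It fell 2.61-fold (log2 −1.38, SE 0.14, adjusted p = 0.014 by limma). Krt20, known from intestinal epithelium, read 1152, 969 and 564 under O(WT)SK, against 1474, 971 and 533 under O(5R)SK. The spread between combinations was widest on day 3 and nearly closed on day 5. Krt20 fell 2.34-fold (SE of the log2 difference 0.14, adjusted p = 0.018 by limma).

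Krt16, a keratin induced in wounded and hyperproliferative epidermis, read 289, 138 and 73.2 under O(WT)SK, against 159, 145 and 65.8 under O(5R)SK. Both day 7 arrays were below all the others. It fell 2.71-fold (log2 −1.44, SE 0.23, adjusted p = 0.034 by limma), and the step from day 3 to day 5 was smaller under O(5R)SK than under O(WT)SK, with 1 array a side and no test. Krt17, which is often induced together with Krt16, was below the limit on 4 arrays and did not enter the main test.

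The basal and suprabasal keratins had no call over time. Krt14 read 261, 310 and 257 under O(WT)SK, against 216, 249.3 and 130 under O(5R)SK, where the O(5R)SK array of day 7 was the lowest of the 6. Its fitted difference was −0.34 (adjusted p = 0.30 by limma), and a second probe set above background gave 0.06. Some probes of the set used for Krt14 can also match other sequences, as its type (x_at) states. Krt5, its type II partner, lay close to the limit at 33.3 to 45.4, with a difference of −0.08. Krt10 read 288, 344 and 324 under O(WT)SK, against 237, 309 and 333 under O(5R)SK, a difference of 0.31 (adjusted p = 0.16). Krt77, a type II epidermal keratin, ranged from 20.1 on day 3 with O(WT)SK to 58.8 on day 7 with O(5R)SK, with a difference of 0.63 (adjusted p = 0.12).

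Krt12, the keratin of the corneal epithelium, read 97.0, 56.7 and 14.8 under O(WT)SK, against 124, 38.8 and 43.1 under O(5R)SK. Its day 7 arrays lay below its day 3 arrays, and 1 of them was below background. The difference of −1.56 just missed the threshold (SE 0.33, adjusted p = 0.056 by limma), and a second probe set gave −1.32. Krt12 passed with a pseudocount of 64, with a common median, with the mean of its probe sets, with a trended prior and without either day 5 array. Krt13, of the oral and oesophageal mucosa, ranged from 31.1 to 53.6, with a difference of 0.38 (adjusted p = 0.15).

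Of the other keratins Krt80 was called. Krt80, a type II keratin of many epithelia, read 223, 318 and 328 under O(WT)SK, against 234, 346 and 459 under O(5R)SK. Most of its gain with O(WT)SK lay between days 3 and 5. It rose 1.65-fold (log2 0.73, SE 0.14, adjusted p = 0.045 by limma), the largest adjusted p of the 9 calls, and the call was lost with quantile normalization, with a pseudocount of 4 and without either day 5 array (adjusted p = 0.051). Krt79, of sebaceous gland and hair canal, had values of 22.2 to 72.1 and a difference of −0.93 (adjusted p = 0.12), which passed without either day 5 array (adjusted p = 0.018). Krt42, a type I keratin, ranged from 263 to 369 and Krt88 from 39.6 to 106, with differences of 0.16 and −0.22. Among the hair keratins, Krt84 read 67.6, 38.3 and 10.5 under O(WT)SK, against 60.2, 49.9 and 47.1 under O(5R)SK, a difference of −0.96 (adjusted p = 0.15). Krt31 ranged from 24.1 to 53.7, Krt32 from 40.9 to 93.7 and Krt81 from 146 to 194, with differences of 0.46, 0.39 and 0.08.

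**Figure D2:**
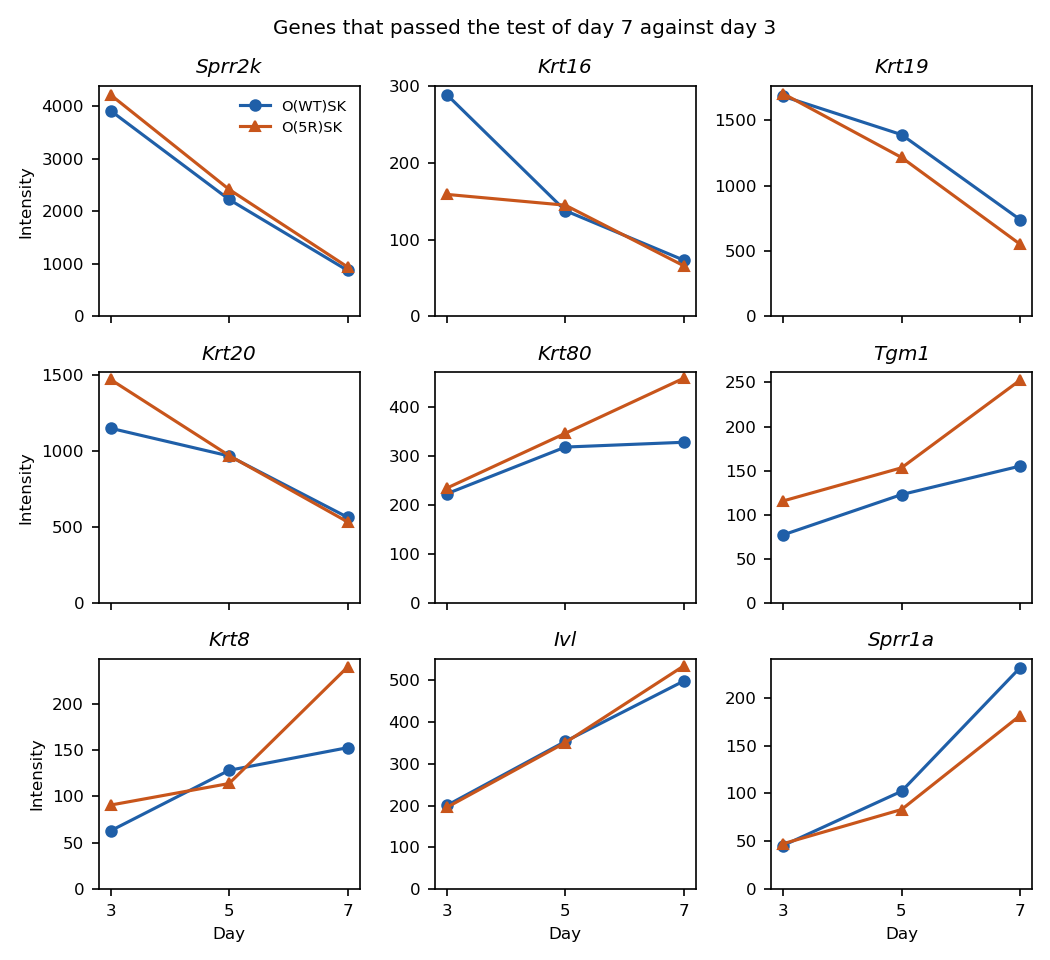
Intensity (linear axis from 0) against day for the 9 genes called between day 7 and day 3, 1 array per point, circles for O(WT)SK and triangles for O(5R)SK. Sprr2k, Krt16, Krt19 and Krt20 descend and Krt80, Tgm1, Krt8, Ivl and Sprr1a climb at each step in both combinations.

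The small proline-rich proteins held the extremes of the 27 tested genes, in opposite directions. Sprr2k read 3911, 2222 and 872 under O(WT)SK, against 4212, 2413 and 937 under O(5R)SK. The combinations stayed close to each other on every day. Sprr2k fell 4.43-fold (log2 −2.15, SE 0.09, adjusted p = 0.0077 by limma), and its difference lay between −2.25 and −2.09 over all alternatives with 6 arrays. The Sprr2 genes are similar in sequence, so probes named for Sprr2k may also bind transcripts of its neighbours, which was not tested. Sprr1a, the small proline-rich protein of stratified epithelia that is also induced by stress and injury, read 45.5, 102 and 232 under O(WT)SK, against 47.4, 83.2 and 181 under O(5R)SK. Both day 5 values lay between those of day 3 and day 7. Sprr1a rose 3.54-fold (log2 1.82, SE 0.13, adjusted p = 0.0092 by limma). Sprr3, abundant in the oesophagus, read 461, 548 and 868 under O(WT)SK, against 574, 686 and 717 under O(5R)SK. It was higher at each step in both combinations, but the difference of 0.60 missed the threshold (adjusted p = 0.11 by limma).

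Involucrin, the scaffold laid down first in the envelope, read 200, 353 and 498 under O(WT)SK, against 195, 351 and 534 under O(5R)SK. The 2 combinations differed by less than 0.1 on the log2 scale on each day. Ivl rose 2.49-fold (log2 1.32, SE 0.10, adjusted p = 0.010 by limma). A second probe set was below background by its mean, with day 3 values of 7.10 and 3.67, and was higher on day 7 (116 and 61.0). Tgm1 read 76.9, 123 and 155 under O(WT)SK, against 116, 153 and 253 under O(5R)SK. Its O(5R)SK value exceeded the O(WT)SK value on all 3 days. Tgm1 rose 1.94-fold (log2 0.96, SE 0.13, adjusted p = 0.023 by limma). Lor, the main protein of the mature epidermal envelope, read 75.6, 104 and 65.4 under O(WT)SK, against 67.2, 72.4 and 105 under O(5R)SK. Lor had no common course, with a difference of 0.19 (adjusted p = 0.67). Its second probe set above background was higher on day 7 in both combinations (0.65 and 0.24), and its other one went opposite ways (1.34 and −1.01). Flg was below the limit on every array at 0.957 to 22.2. Sfn read 289, 226 and 145 under O(WT)SK, against 210, 258 and 184 under O(5R)SK. Its day 7 arrays were below its day 3 arrays, and the difference of −0.55 missed the threshold (adjusted p = 0.16).

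**Figure D3:**
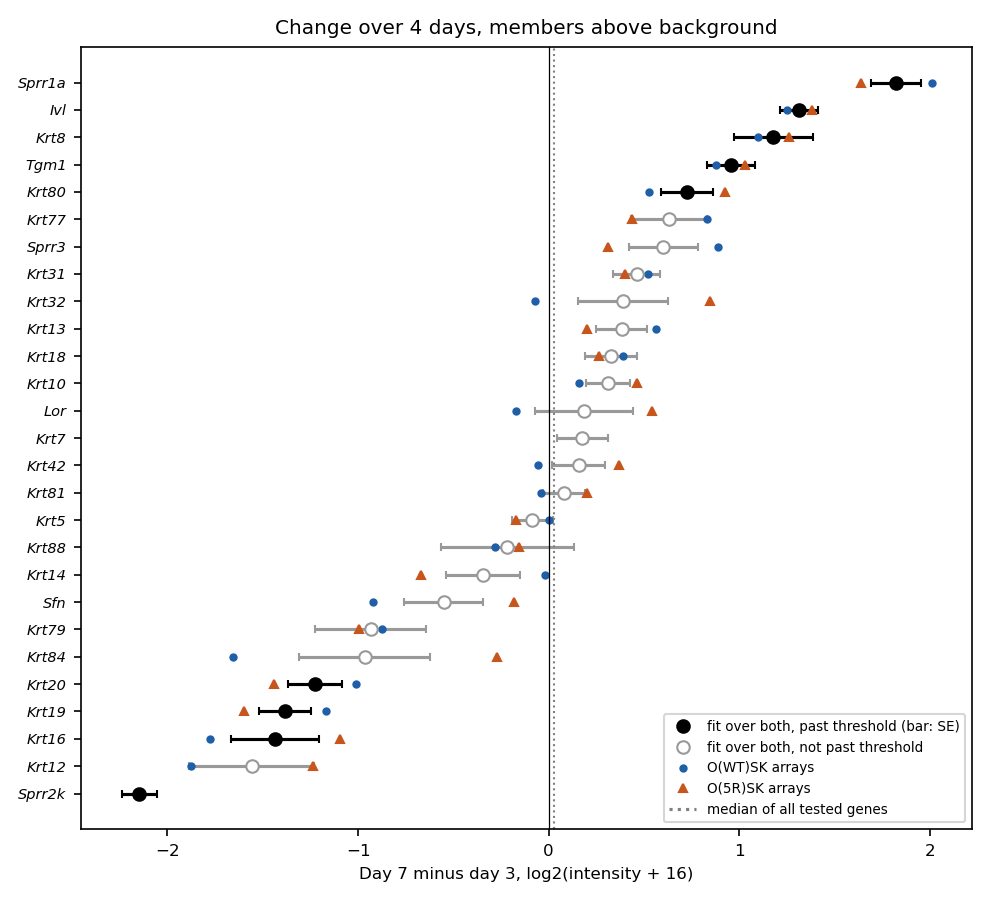
Difference between day 7 and day 3 on the log2(intensity + 16) scale for the 27 genes above background; black dots (called) and open dots (not called) are the fit over both combinations with its SE, small blue dots and orange triangles the single-array differences, and the dotted line the median of all tested genes. Sprr1a is the highest at 1.82 and Sprr2k the lowest at −2.15.

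At least 2-fold higher on day 7 than on day 3 in both combinations were Ivl, Krt8 and Sprr1a, against 2.01% of tested genes. At least 2-fold lower in both were Krt12, Krt16, Krt19, Krt20 and Sprr2k, against 0.784%. Higher at each step in both combinations were Ivl, Krt8, Krt80, Sprr1a, Sprr3 and Tgm1, against 14.9% of tested genes, and lower at each step were Krt16, Krt19, Krt20, Krt84 and Sprr2k, against 12.9%. The steps themselves had no calls: limma called 0 genes between days 3 and 5 and 0 between days 5 and 7 (0.0% of tested genes in both). Without adjustment 2041 genes had a p under 0.05 in the first interval and 1745 in the second, with 9 of the 27 genes in each. Sprr2k changed by −0.81 and then −1.34, Sprr1a by 0.79 and then 1.03, and Krt19 by −0.38 and then −1.01, so their larger fitted difference lay in the second interval. For Ivl the fitted differences were 0.78 and then 0.53. A test of one interval against the other was not run.

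Between the OCT4 versions no gene of the group was called. Limma called 0 of 12622 genes (0.0%) for O(5R)SK against O(WT)SK over the 3 days, and 1180 genes, 2 of the 27 among them, had an unadjusted p under 0.05. Other settings with 6 arrays called genes outside the group: 65 higher and 17 lower with a trended prior, 26 higher and 1 lower with the stricter filter, and 2 higher with a pseudocount of 64, with 0 of the 27 genes in each. The 27 genes had a median difference of 0.02 (15 positive, 12 negative), against −0.01 for all tested genes. Tgm1 had the smallest adjusted p, 0.37, with a difference of 0.48 (SE 0.10) that was 0.50, 0.29 and 0.65 on days 3, 5 and 7. Krt14 lay at the other end, with −0.49 (SE 0.16, adjusted p = 0.49 by limma), and its second probe set gave −0.67. All O(5R)SK arrays were below all O(WT)SK arrays for Krt14, Krt42 and Krt81, against 4.71% of tested genes. For Krt14 and Krt42 the probe set used is an x_at set, and in both genes the second set above background overlapped between combinations. The second set of Krt42 gave a version difference of 0.12. None of the 27 genes had all O(5R)SK arrays above, against 4.63%. No gene of the group was at least 2-fold apart in the same direction on all 3 days, against 0.0792% of tested genes. On single days 1 value reached 2-fold: Krt84 on day 7, at 1.25 in log2, where the O(WT)SK array was below background. Of the 12622 tested genes 218 were at least 2-fold higher and 49 at least 2-fold lower on that day, 87 and 80 on day 3, and 126 and 86 on day 5. A p that misses the threshold does not show that the versions act alike, and with 1 array per day only large differences can be called.

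For the courses no difference was called either, which does not show that they are alike. The difference of slopes between the combinations, per 4 days, was called for 0 of 12622 genes (0.0%) by limma. Unadjusted, 949 genes and 1 of the 27 had a p under 0.05. That gene was Krt84, with a difference of slopes of 1.39 (adjusted p = 0.65 by limma). Its O(WT)SK array of day 7 was below background. With a trended prior limma called 2 genes, with 0 of the 27 among them.

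**Figure D4:**
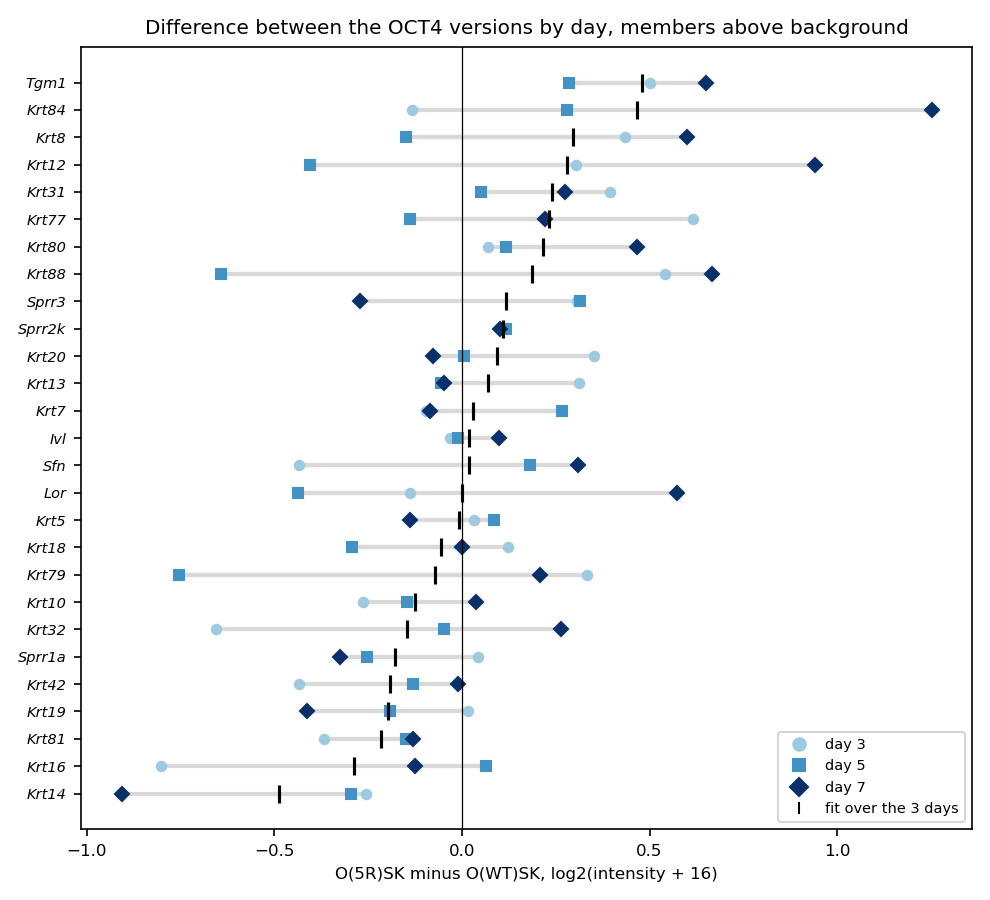
O(5R)SK minus O(WT)SK on the log2(intensity + 16) scale on day 3 (circles), day 5 (squares) and day 7 (diamonds), 1 array a side, with the fit over the 3 days as a black tick, for the 27 genes above background. Most genes have points on both sides of 0, and Tgm1 has its 3 points at 0.29 to 0.65.

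Within the epidermal differentiation complex, neighbouring genes moved in opposite directions. In RefSeq order Sprr2k, Sprr1b, Sprr3 and Sprr1a follow one another, with Ivl next after Sprr4. Of 27 listed genes on the array from Lor to Flg, a part of the complex, 14 were tested. Of these, 2 rose (Sprr1a and Ivl) and 4 fell (Sprr2k, Lce1f, Lce1h and Crct1), against 6.52% and 3.68% of all tested genes. Lce1h, of the late cornified envelope family, read 14724, 10003 and 5692 under O(WT)SK, against 15817, 10090 and 5462 under O(5R)SK. It fell by 1.45 on the log2 scale (SE 0.10, adjusted p = 0.0088 by limma), and Lce1f fell by 1.46. In the keratin clusters some close neighbours had differences of like sign and others of opposite sign. Krt8 and Krt18 lie side by side with 1.18 and 0.33, and Krt19 (−1.38) lies close to Krt14 (−0.34) and Krt16 (−1.44). By contrast, Krt10 (0.31) lies next to Krt12 (−1.56), which is followed by Krt20 (−1.23). Of these, Krt18, Krt14, Krt10 and Krt12 did not pass the test.

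**Figure D5:**
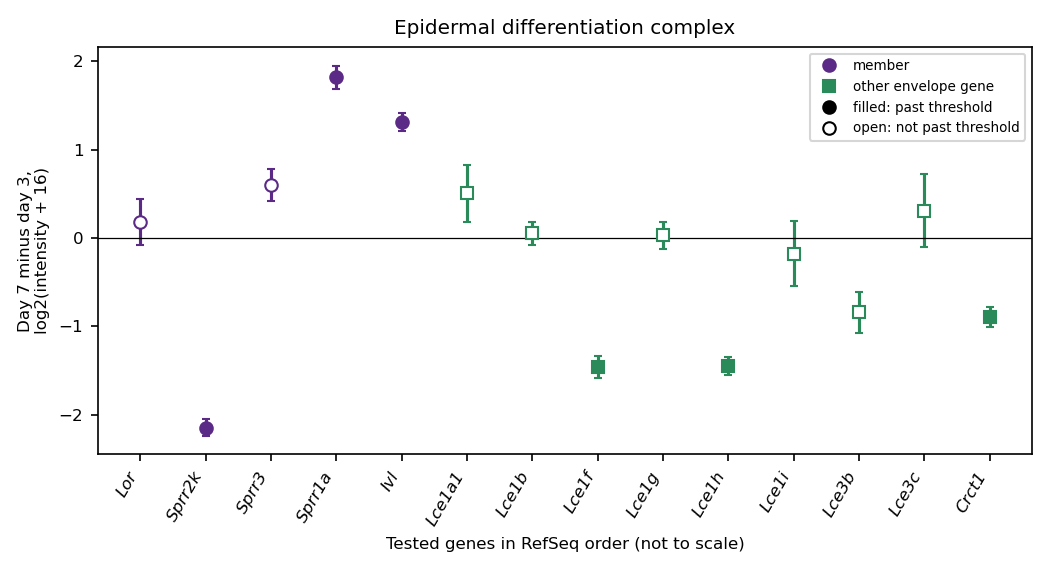
Difference between day 7 and day 3 (log2(intensity + 16), bar: SE) for the 14 tested of the listed genes from Lor to Flg. The genes, from a part of the epidermal differentiation complex, are in RefSeq order, not to scale. Filled symbols passed the threshold. Sprr2k at −2.15 and Sprr1a at 1.82 lie a few genes apart.

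Other genes of the envelope and the epidermal barrier were as divided. Of 47 listed, 46 were on the array and 26 were tested. Of the 26, 3 rose (Dsp, Scel and Cst6) and 4 fell (Lce1f, Lce1h, Cnfn and Crct1), against 6.52% and 3.68% of all tested genes. Their median difference was 0.33, against 0.03 for all tested genes. Dsp, the desmosomal plaque protein that anchors keratin filaments, read 784, 1241 and 1454 under O(WT)SK, against 743, 1272 and 1851 under O(5R)SK and rose by 1.09 (adjusted p = 0.022 by limma). Cnfn, the envelope protein cornifelin, fell by 1.20 (adjusted p = 0.015 by limma). Of 16 keratin partners and other filament genes, 13 were tested. The desmosomal genes Pkp1 and Pkp2 went opposite ways, the first rising by 0.81 and the second falling by 1.38.

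Of 27 transcription regulators of epidermis and epithelia, 25 were on the array and 17 were tested. Ehf, an epithelial ETS factor, rose by 1.89 (adjusted p = 0.025 by limma), from 21.7 to 23.5 on day 3 to 85.9 with O(WT)SK and 184 with O(5R)SK on day 7. Both day 3 values of Ehf lie below the background limit, so its difference is against background. Klf5, a Krüppel-like factor of proliferating epithelia, fell by 0.82 (adjusted p = 0.033 by limma). Klf4, which is also a delivered factor, had a difference of 0.22 (adjusted p = 0.22). Trp63, the master regulator of stratified epithelia, was below the mean limit at 17.3 to 36.0, and Ovol1, Zfp750 and Elf5 were below it on every array.

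Markers of other cell types moved over the same days, and their part in the results above was not tested. For comparison, 6.52% of all tested genes were called higher and 3.68% lower on day 7 than on day 3. Of simple epithelial markers 13 of 14 were on the array, 9 were tested and 4 rose (Cdh1, Ehf, Spint2 and St14). Their summed intensity was 969 to 1049 on day 3 and 1626 with O(WT)SK and 2691 with O(5R)SK on day 7, with Esrp1 and Rab25 below the limit on every array. Of basal keratinocyte markers 12 of 14 were on the array, 8 were tested and 2 rose (Lamb3 and Perp), with sums of 12658 to 13188 on day 3 and 17744 to 19467 on day 7, and with Krt15 and Col17a1 below the limit on every array. This basal list includes Krt5, Krt14 and Krt15 themselves. Mesothelium, whose cells also use Krt8, Krt18 and Krt19, had 10 listed markers, of which 7 were tested and 5 rose (Msln, Bnc1, Upk1b, Gpm6a and Upk3b). The mesothelial sum was 4260 to 4426 on day 3 and 10971 to 11692 on day 7, with Rspo1 below the limit on every array. Of 10 macrophage markers all were tested and 7 fell, with sums of 9854 to 10463 on day 3 and 3706 to 4411 on day 7. Of 10 fibroblast markers 2 fell (Thy1 and Postn), and of 3 tested trophoblast markers 0 were called by limma (summed intensity 335 to 490, with Elf5 and Plac1 below the limit on every array).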

How the data were processed

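Total RNA of 6 samples was hybridised as biotinylated cRNA to Affymetrix arrays. The authors made the values with affy, per the submitters' processing notes; no version, background correction or summary step was found there. The deposited values are linear intensities with a 2% trimmed mean of 500 on every array. Of 45101 probe sets 34958 name 1 gene, 932 several and 9211 none in the platform annotation; 64 controls were left out. Per gene the probe set with the highest mean log2(intensity + 16) was used (71 probe sets for the 57 genes), so folds are on that scale and understate dim genes.

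Genes above the 40th percentile were tested with limma 3.58.1 (R 4.3.3): combination plus day, with 2 residual and 2.60 prior degrees of freedom, or combination by numeric day for slopes. The residual holds array noise and any change of the factor difference with day. P-values were Benjamini-Hochberg adjusted over all tested genes, at 0.05. The scripts were tested on simulated data. The number of arrays limits the precision. Alternatives were other pseudocounts, filters, scalings, probe set rules and priors, and each array left out. Every gene above background is named with values, the rest by range; of other lists at most 4 genes by size, with Scel, Cst6, Crct1 and Upk3b named for completeness after their values were seen. Members and lists were chosen with earlier results of these data known. Promoters came from RefSeq (GRCm38.p6).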

Additional observations from a re-analysis of the deposited data

Results flagged for a closer look

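For 5 genes the difference between day 7 and day 3 had opposite signs in the 2 combinations, on the log2(intensity + 16) scale. Each rests on 1 array a side, so the single differences were not tested. The main test of slopes called 0 genes. Krt32 differed by −0.07 with O(WT)SK and by 0.85 with O(5R)SK. Lor differed by −0.17 and 0.54, Krt42 by −0.06 and 0.37, and Krt81 by −0.04 and 0.20, in the same order. Krt5 differed by 0.00 and −0.17 and lies close to background.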

How the results depend on the processing

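The fit compares the combinations within days; no block by replicate could be added, since each combination and day has 1 array and the labels carry no replicate numbers. The number of genes of the group called between days 7 and 3 was 9, and ranged from 7 to 11 over the alternatives with 6 arrays except 1: with no filter it was 0. With single arrays left out it ranged from 0 to 10. The stricter filter left Sprr1a untested and called Sprr3. For day 5 against day 3 it was 2 (Ivl and Sprr2k) with a pseudocount of 64, with the stricter filter and with the trended prior. For day 7 against day 5 it was 3 with a pseudocount of 64, 3 with the stricter filter and 4 with the trended prior (Krt19, Krt20, Sprr1a and Sprr2k). The signs of the 9 called genes held wherever they were fitted. Other filters, the trended prior and leaving out a day 5 array leave the fitted day 7 difference unchanged, so those runs could not turn a sign. With a common median 49.4% of the 1171 calls over all genes were higher, against 63.9% in the fit reported; the causes of these changes were not tested.

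Signs turned for small differences. Between days 7 and 3, Krt42 was −0.10 with the mean of probe sets, and Krt81 was −0.020 with a common median and −0.040 with quantile normalization. Between the OCT4 versions, Ivl was −0.016 with a common median and −0.075 with the mean of probe sets, Krt7 −0.0059 with a common median, and Sfn −0.016 with a common median and −0.012 with quantile normalization. With single arrays left out the day 7 differences ranged from −0.18 to 0.014 for Krt5, −0.025 to 0.34 for Krt42, −0.034 to 0.20 for Krt81, −0.58 to 0.14 for Krt88 and −0.24 to 0.62 for Lor. The version differences ranged from −0.021 to 0.044 for Ivl, −0.053 to 0.060 for Krt5, −0.090 to 0.091 for Krt7, −0.051 to 0.62 for Krt12, −0.051 to 0.13 for Krt13, −0.15 to 0.061 for Krt18, −0.037 to 0.18 for Krt20, −0.35 to 0.11 for Krt32, −0.27 to 0.27 for Krt79, −0.051 to 0.60 for Krt88, −0.29 to 0.22 for Lor and −0.13 to 0.24 for Sfn. Signal over background limits the 30 dim genes.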

Other observations

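Some probe sets of the same families name several genes and were left out of the group. A probe set for Sprr2a1 and Sprr2a2 read 55.9, 71.1 and 117 in the order of days 3, 5 and 7 under O(WT)SK, against 44.0, 91.4 and 158 under O(5R)SK, a day 7 difference of 1.21 on the log2(intensity + 16) scale. A probe set shared by Sprr2a1, Sprr2a2 and Sprr2a3 read 250.0, 372 and 414 under O(WT)SK, against 187, 282 and 428 under O(5R)SK, a difference of 0.91. Both probe sets were higher at each step in both combinations, while Sprr2k of the same family was lower at each step. Another, dim probe set for Sprr2a1 and Sprr2a2, below background, gave −0.08. These differences were not tested, since no single gene can be named.

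Keratins whose symbol ends in a letter also lay outside the group: Krt6a, Krt6b, Krt33a and Krt33b. Krt6a, the wound keratin that pairs with Krt16 and Krt17, read 184, 173 and 123 under O(WT)SK, against 139, 134 and 126 under O(5R)SK, a difference of −0.32 (adjusted p = 0.20 by limma). Krt6b, Krt33a and Krt33b were below background by their mean. Cysrt1, an envelope gene of the barrier list, read 20.8, 36.2 and 25.9 under O(WT)SK, against 87.6, 157 and 139 under O(5R)SK, an O(5R)SK minus O(WT)SK difference of 1.71 that missed the threshold (adjusted p = 0.11 by limma). Under O(WT)SK its day 3 and day 7 values lie below the background limit, so this difference is in part against background.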
